A study of Drosophila melanogaster with 2 samples.

Results

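Exonic peaks away from transcription start sites were the 208 entries of the combined ssp peak list whose summit lay inside an annotated exon and more than 500 bp from the nearest transcription start site (TSS) of any gene. They made up 4.23% of the 4914 entries on the 6 chromosome arms. Members were chosen by position alone, with the Ensembl annotation of the dm6 assembly. The summits of 111 members lay in coding exons, 21 in 5′ UTRs, 35 in 3′ UTRs and 41 in exons of non-coding RNAs. The label held for most isoforms: 187 of the 208 summits were exonic in every annotated transcript of the gene that spanned them. With 1 gene named per summit, 188 genes carried at least 1 member and 16 carried several. Some of the 16 held an entry with a signal under 20 along with a stronger one, such as Dfd with 71.4 and 8.64. The data came from chromatin immunoprecipitation with sequencing of whole Drosophila melanogaster embryos aged 0 to 24 h. The embryos came from the strain ssp-GFP, transgenic flies that express ssp fused to eGFP, and an antibody against GFP was used. There was 1 group, ssp-eGFP embryo, with 2 biological replicates, both from 1 fly line, and no untagged or otherwise treated group. All tissues and stages of embryogenesis were pooled, so few nuclei with strong binding and many nuclei with weak binding cannot be told apart. Sequencing depth is unknown, since the lists hold no read counts.

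The gene ssp (sunspot) encodes a nuclear protein known as a link between Wingless signalling and DNA replication. It restrains expression of the replication clamp PCNA, and Armadillo, the effector of Wingless, binds it and moves it out of the nucleus. A peak in an exon is only a position in DNA: coding exons, UTRs and the exons of long non-coding RNAs can hold enhancers and unannotated start sites as well as transcribed sequence, and immunoprecipitated chromatin carries no strand.

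Windows of 30 bases around the summit show the DNA under selected exonic peaks. They are the 6 strongest members in exons of long non-coding RNAs and the 6 strongest in coding exons on the arms 2L, 3L, 3R, 4 and X, with no UTR base in the window and no overlap with a stronger entry. Each is given 5′ to 3′ on the strand of the gene from the RefSeq sequence of the same assembly, in falling order of signal within its set, and capitals mark G and C.
lncRNA:Vinr at X:12751338-12751367, + strand: CCttaCatGtttCtGttaaaaattttGtGt
lncRNA:CR46035 at 3R:17704387-17704416, + strand: CattaaattattGtttCtGatCaaGtCaCt
lncRNA:CR44619 at X:12752362-12752391, + strand: GaaGaaaataCaaaaaaatatCGCaCatCC
lncRNA:CR46488 at 4:180875-180904, - strand: tGtCGtttGCCCGttaCtaGCtaGtGtGaa
lncRNA:CR44619 at X:12754508-12754537, + strand: taaGCtaaCtataCCataaaaCaaattaaG
lncRNA:CR44363 at 3L:11406028-11406057, + strand: GCatttaCaaaaatatatatCatattGGta
AGO3 at 3L:23568711-23568740, + strand: GaCGGaaataCtttatatttaCCtattttG
FASN3 at 3L:25756879-25756908, - strand: CGCttataatGtaCtaGtCGaCaatGGGta
FASN3 at 3L:25757995-25758024, - strand: aaGaGtttttGaGtGGaCatattataGatG
klar at 3L:506181-506210, - strand: CaaCtaCattatGGaCaCGaaCCttttGGa
CG9760 at 3L:12159319-12159348, - strand: attCtGaCCGtGttCGCCGtGattGCCCtG
LpR1 at 3R:25747189-25747218, - strand: CCGaCGaGttCaCCtGCGGCaatGGaCGGt
The long non-coding RNA windows held from 6 G or C of 30, at lncRNA:CR44363, to 14, at lncRNA:CR46488. The strongest coding exon peak, at otp, has no printed window, and G and C made up 60.4% within 50 bp of its summit. Among the printed coding exon windows, the strongest, those of AGO3 and FASN3, held from 8 to 12. They so overlapped the long non-coding RNA windows. Those of CG9760 and LpR1, the lipophorin receptor gene, whose signals were 112 and 92.3, held 17 and 19. Both signals were under the median of the whole list, 133. The CG9760 peak overlapped the peak list of only 1 replicate, and the LpR1 peak that of neither.

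Coding exons and 3′ UTRs held few ssp peaks for their length. Exonic sequence more than 500 bp from a TSS covered 19.8% of the bases of the 6 arms. Coding exons had 6.04 peaks per Mb and 3′ UTRs 5.90, against 28.0 in introns and 21.0 in intergenic sequence. The exons of non-coding RNAs had 37.4 peaks per Mb and 5′ UTRs 20.1. A like order held among the ranked candidates, the regions the peak caller proposed before the threshold on the irreproducible discovery rate (IDR), a measure of how well a peak's rank repeats. Of 30382 exonic candidates, 265 (0.872%, Wilson 95% interval 0.774 to 0.983%) overlapped an entry of the combined list, against 4.57% of all 126647 candidates. The share was 0.536% of the candidates in coding exons, 2.77% in 5′ UTRs, 1.84% in 3′ UTRs and 4.97% in non-coding exons, beside 3.84% in introns and 2.87% in intergenic sequence. Intervals cover counting error only, and neighbouring candidates are not independent.

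Exonic peaks were weaker than other peaks away from a TSS. Signal is the value the authors' peak caller gave to each peak, and it was used to rank peaks within a list. The median signal was 80.6 in exonic peaks (quartiles 71.4 and 123) and 116 in the 2247 intronic and intergenic peaks (84.1 and 182). Of the exonic peaks, 44 of 208 (21.2%, Wilson 95% interval 16.2 to 27.2%) exceeded the median of the whole list, 133, against 910 of 2247 (40.5%). The odds ratio was 0.394 (Woolf 95% interval 0.280 to 0.556, adjusted p = 2.34e-08 by a two-sided exact test of Fisher over 4 comparisons). By construction 50% of all entries lie above that median. The call was lost in the lists of single replicates, each with its own median: the odds ratio was 0.932 without replicate 1 and 0.690 without replicate 2. Peaks, not embryos, are the units of these tests, so their p-values are no evidence across biological replicates.

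**Figure D1:**
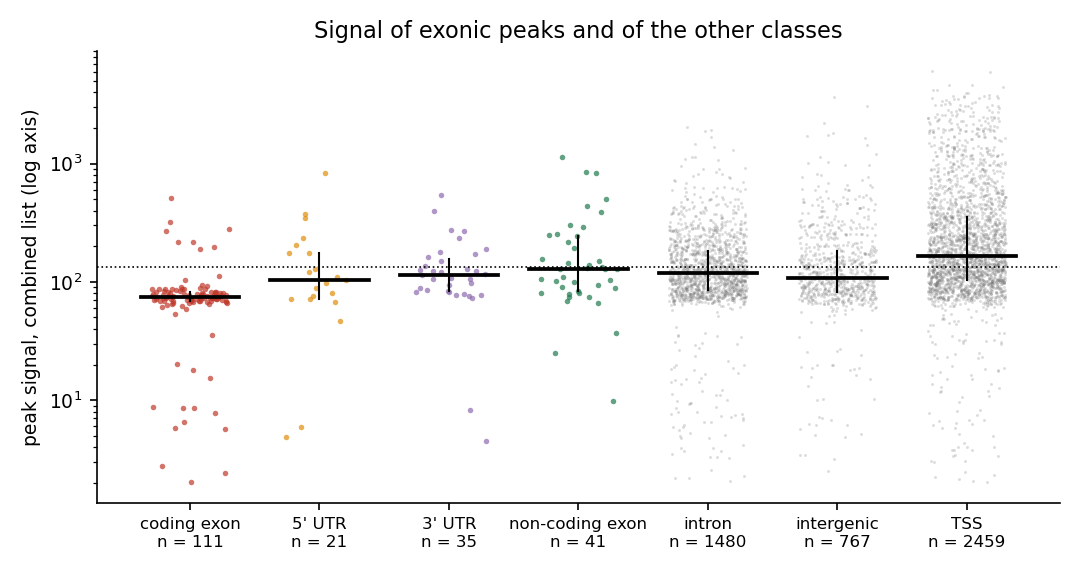
Signal of every combined peak on a log axis, with coding exon, 5′ UTR, 3′ UTR and non-coding exon peaks at the left and intronic, intergenic and TSS peaks at the right; bars are medians, vertical lines quartiles, and the dotted line is the median of the list. Coding exon peaks sat in a narrow band with a median of 73.9, against medians from 105 to 129 in the other exonic classes.

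Coding exon peaks were weaker than the other exonic peaks. They had a median signal of 73.9, with quartiles of 68.5 and 81.9, and 85 of the 111 lay between 60 and 100. The median was 105 in 5′ UTRs, 114 in 3′ UTRs and 129 in non-coding exons. The list median was exceeded by 8 of 111 coding exon peaks (7.21%) and by 36 of 97 UTR and non-coding exon peaks (37.1%), an odds ratio of 0.132 (0.0574 to 0.302, adjusted p = 1.73e-07 by the same exact test). Set against intronic and intergenic peaks, the UTR and non-coding exon peaks alone gave an odds ratio of 0.867 and no call (Fisher's exact test, adjusted p = 0.528). The strongest 491 entries of the list held 5 exonic peaks, 3 of them in non-coding exons, 1 in a 5′ UTR, 1 in a 3′ UTR and 0 in a coding exon.

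Few exonic peaks were called in both embryo collections. An overlap of at least 1 base with both single-replicate lists was found for 52 of 208 exonic peaks (25%, Wilson 95% interval 19.6 to 31.3%), against 1040 of 2247 intronic and intergenic peaks (46.3%) and 56.5% of all entries. The odds ratio was 0.387 (0.280 to 0.535, adjusted p = 3.07e-09 by the same exact test). A further 56 exonic peaks overlapped 1 of the replicate lists, beside 640 of 2247 intronic and intergenic peaks and 1190 of all 4914 entries. Neither list held 100 exonic peaks (48.1%), against 25.2% of intronic and intergenic peaks and 19.3% of all entries. Replicate 1 held 93 of the 208 (44.7%) and replicate 2 held 67 (32.2%), against 70.8% and 66.4% of all entries. The authors' conservative list held 135 of the 208 (64.9%), against 1898 of 2247 (84.5%) and 87% of all entries, with an odds ratio of 0.340 (0.250 to 0.462, adjusted Fisher p = 2.76e-10). Signal and presence in these lists are related, so these comparisons and that of signal are not independent of each other. Whether presence in the lists differed at equal signal was not tested.

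Coding exon peaks were in these lists less often than the other exonic peaks. Both replicate lists held 11 of 111 coding exon peaks (9.91%) and 41 of 97 UTR and non-coding exon peaks (42.3%), an odds ratio of 0.150 (95% interval 0.0716 to 0.315, adjusted Fisher p = 1.31e-07). The conservative list held 52 (46.8%) and 83 (85.6%), an odds ratio of 0.149 (0.0755 to 0.293, adjusted Fisher p = 1.32e-08). By class, both lists held 8 of 21 peaks in 5′ UTRs, 11 of 35 in 3′ UTRs and 22 of 41 in non-coding exons. Of the coding exon peaks, 79 overlapped neither replicate list, and their signals ran from 2.41 to 92.3. The 11 in both lists had a median signal of 216. Against intronic and intergenic peaks, the UTR and non-coding exon peaks gave an odds ratio of 0.850 for both lists and 1.09 for the conservative list, and neither was called (Fisher's exact test, adjusted p = 0.468 and 0.886).

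**Figure D2:**
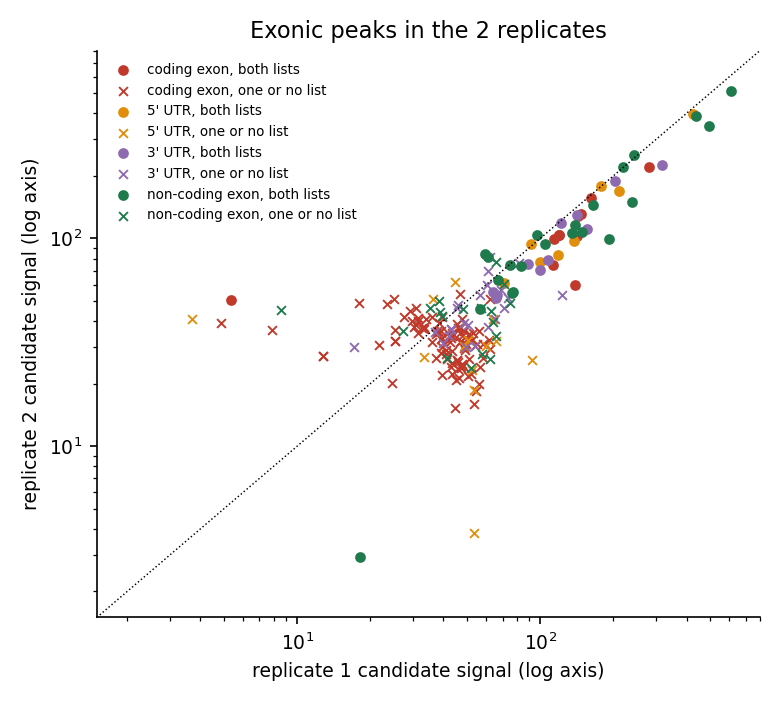
Candidate signal in replicate 2 against replicate 1, both on log axes, for the 201 exonic peaks with an overlapping candidate in each; colour gives the kind of exon, filled circles are peaks in both replicate lists and crosses are peaks in 1 or none, and the dotted line marks equal signals. The strong non-coding exon, UTR and coding exon peaks lie along that line, and most coding exon peaks form a cloud at low signal.

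In the ranked candidates of the replicates, 150 of 201 exonic peaks had the higher signal in replicate 1. The same held for 1581 of 2201 intronic and intergenic peaks and for 3495 of 4827 peaks of the whole list. Over these 201 peaks the log2 ratio of the replicate 2 signal to that of replicate 1 had a median of -0.32 and an SD of 0.80, beside -0.26 and 0.72 over 2201 intronic and intergenic peaks. Part of the ratio may be the scale of each list. A few entries near the bottom of the range lie far from the line of equal signals. Of the 17 members with a signal under 20, 16 overlapped a stronger entry of the same list, so the replicate value matched to such an entry can belong to its neighbour.

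Base composition moved with these differences. Within 50 bp of the summit, G and C made up a median of 59.4% in coding exon peaks (quartiles 53.5 and 63.4%), 39.6% in 5′ UTRs, 32.7% in 3′ UTRs and 35.6% in non-coding exons. Intronic and intergenic peaks had 33.7%. The share was 50% or more in 98 of 111 coding exon peaks, in 9 of 97 UTR and non-coding exon peaks and in 192 of 2247 intronic and intergenic peaks. In every class other than coding exons the peaks were poorer in G and C than the candidates that failed, which had medians of 51.5% in 5′ UTRs, 42.6% in 3′ UTRs, 47.5% in non-coding exons and 44.6% in introns. In coding exons the peaks were richer than the failed candidates, whose median was 55.4%.

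**Figure D3:**
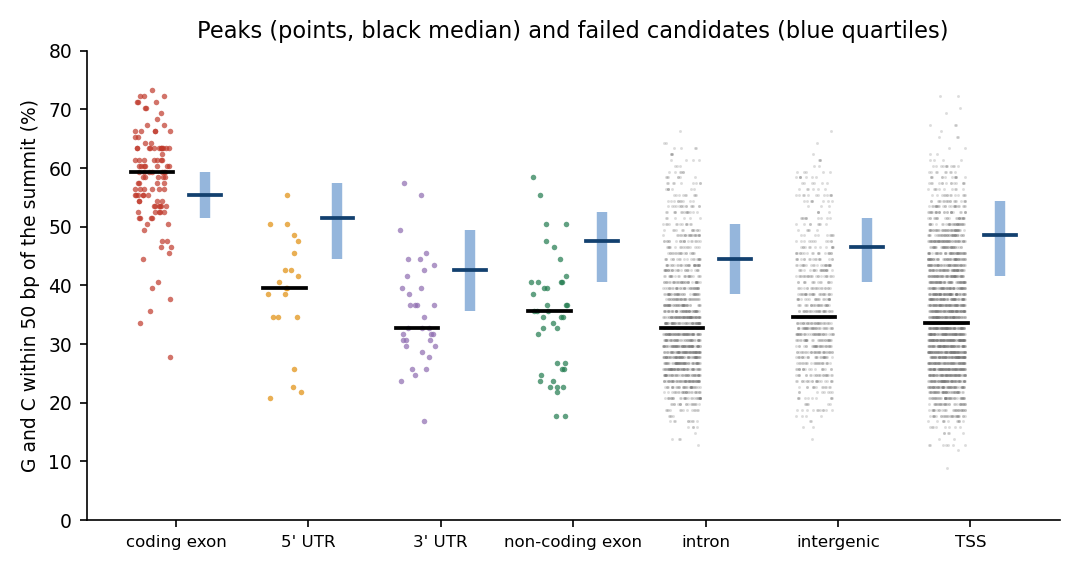
Share of G and C within 50 bp of the summit (%) by class; points are peaks with their median as a black bar, and the blue bars give the median and quartiles of candidates that failed the threshold. The coding exon peaks lie at a median of 59.4%, and the other exonic peaks overlap the range of the intronic and intergenic ones.

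These 3 comparisons of exonic with intronic and intergenic peaks were repeated on either side of 50% G and C, a division chosen after these values were seen, and were called at 50% or more but not below it. Whether the odds ratios of both ranges differ was not tested. Of the 101 exonic peaks under 50%, 88 were UTR and non-coding exon peaks. Of the 107 at 50% or more, 98 were coding exon peaks. Base composition and kind of exon can so hardly be told apart here. Under 50%, both replicate lists held 46 of 101 exonic peaks (45.5%) and 1003 of 2055 intronic and intergenic peaks (48.8%), an odds ratio of 0.877 with no call (Fisher's exact test, adjusted p = 0.542). The odds ratios for a signal above the median and for the conservative list were 0.858 and 0.862, and neither was called (Fisher's exact test, adjusted p = 0.474 and 0.559). At 50% or more the numbers were 6 of 107 (5.61%) and 37 of 192 (19.3%), an odds ratio of 0.249 (Fisher's exact test, adjusted p = 0.00129). The 13 coding exon peaks under 50% had 8 in both lists, and the 98 at 50% or more had 3. The odds ratio of the conservative list was 0.418 at 50% or more (adjusted Fisher p = 0.000710) and that of a signal above the median 0.334 (adjusted Fisher p = 0.0464). The p-values of a range were not adjusted together. The call for signal at 50% or more lies near the limit of 0.05 and rests on the adjustment chosen.

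**Figure D4:**
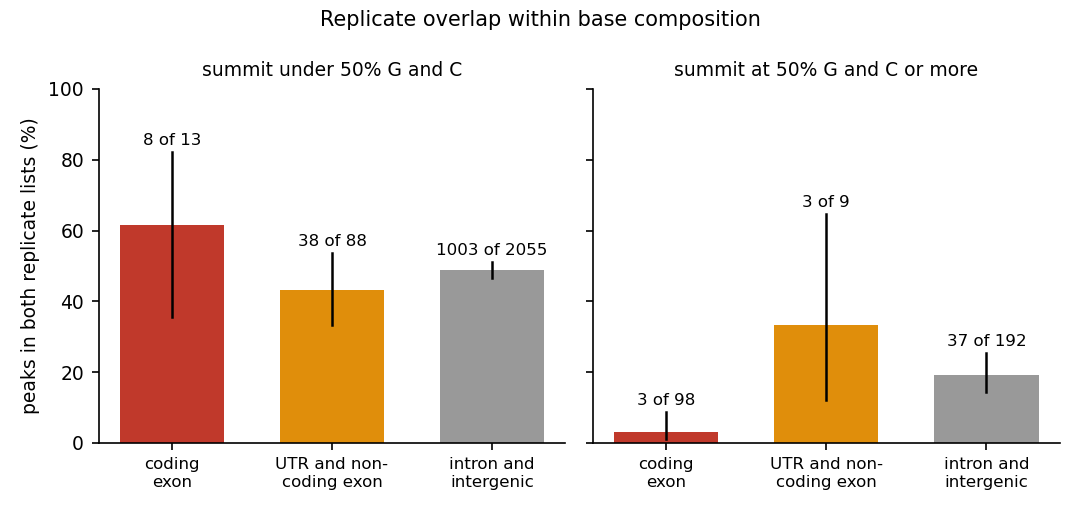
Share of peaks found in both replicate lists (%), for summits under 50% G and C at the left and at 50% or more at the right; bars are coding exon, UTR and non-coding exon, and intronic and intergenic peaks, with Wilson 95% intervals and counts. Coding exon peaks range from 8 of 13 in the GC-poor range to 3 of 98 in the GC-rich one.

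Among candidates, coding exons were the only class without a higher passing share under 50% G and C. Under 50% G and C, 17 of 5343 coding exon candidates (0.318%, Wilson 95% interval 0.199 to 0.509%) overlapped a combined peak, against 4.60% of 34148 intronic candidates. At 50% or more the numbers were 122 of 20571 (0.593%, 0.497 to 0.708%), against 1.70% of 12149 intronic candidates. Coding exon candidates thus passed less often than intronic ones in both ranges. The intervals of the coding exon shares overlap between the ranges, and that difference was not tested. Non-coding exon candidates passed in 6.19% of 678 cases under 50% and in 2.84% of 388 at 50% or more, and 5′ UTR candidates in 4.84% of 516 and 0.995% of 603.

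The strongest exonic peaks lay in long non-coding RNA genes. lncRNA:Vinr (FBgn0287633) held the strongest of all, at X:12750869-12751603, with a signal of 1149 and rank 223 in the list, and candidate signals of 607 in replicate 1 and 510 in replicate 2. Its summit lay 1459 bp into the gene and 514 bp upstream of the start of the overlapping gene lncRNA:CR44619 (FBgn0265830). That gene held a pair of members of its own, at X:12752214-12752522 with a signal of 835 (437 in replicate 1, 387 in replicate 2) and at X:12754400-12754680 with 441 (220 in each replicate). The first of the pair lay 510 bp past that start, so both it and the lncRNA:Vinr member were just over the 500 bp limit. lncRNA:CR46035 (FBgn0267702, 3R:17704261-17704572) had a signal of 844, with 496 in replicate 1 and 348 in replicate 2. Neither lncRNA:CR46035 nor the Vinr locus had a combined peak at the gene's own start.

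lncRNA:CR43334 (FBgn0286827) held 4 exonic peaks, more than any other gene. Its transcript spans mir-ban, the hairpin of bantam, a microRNA that promotes growth and blocks cell death. Counted from the 5′ end of the gene, the summits lay at 5313, 6396, 8156 and 12252 bp, and mir-ban starts at 13773 bp. Their combined signals were 250, 300, 132 and 149, with candidate signals in replicate 1 of 135, 165, 74.8 and 65.8 and in replicate 2 of 106, 144, 48.7 and 77.3. The first and second overlapped both replicate lists, the third that of replicate 1 alone and the fourth that of replicate 2 alone. The list also held a peak at -480 bp, upstream of the gene's first start (126), and one at 14135 bp, past mir-ban (85.8).

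**Figure D5:**
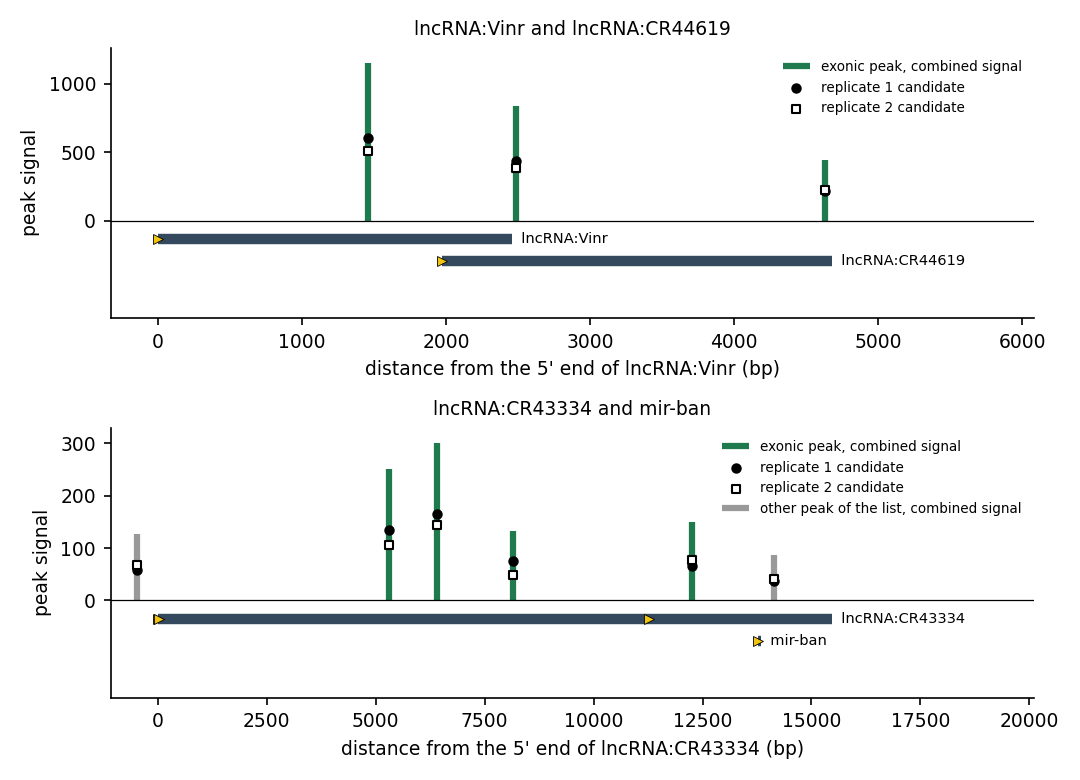
Exonic peaks (green), other combined peaks (grey) and candidate signals of replicate 1 (filled circles) and replicate 2 (open squares) along the lncRNA:Vinr and lncRNA:CR44619 genes (top) and the lncRNA:CR43334 gene with mir-ban (bottom); the x axis is the distance from the gene's 5′ end in bp, dark bars are genes and arrowheads annotated start sites. Signals fall along the Vinr locus, with values of 1149, 835 and 441; the weaker lncRNA:CR43334 peaks differ more between replicates, with 74.8 in replicate 1 and 48.7 in replicate 2 at the one with a combined signal of 132.

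In other non-coding RNA genes, lncRNA:CR46488 (FBgn0287619) on chromosome 4 had a signal of 501 (243 in replicate 1, 252 in replicate 2), and its summit was the only member inside an annotated transposable element. lncRNA:CR44363 (FBgn0265470) had 391 (239 and 150), at 508 bp from its own start. lncRNA:CR44603 held a pair with 291 and 134, and lncRNA:CR42719 and lncRNA:CR43823 had 256 and 246. Of the 41 non-coding exon peaks, 20 lay in single-exon transcripts and 22 within 1000 bp of a TSS. The annotation holds 1944 long non-coding RNA genes, of which 33 (1.70%) carried 39 exonic peaks and 119 (6.12%) a peak at a TSS. Of the 13945 protein-coding genes, 159 (1.14%) carried an exonic peak and 2984 (21.4%) a peak at a TSS. These counts by gene type take every gene with an exon at a summit, not only the gene that names the member.

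Among 5′ UTRs the highest signal was at baz (FBgn0000163, X:17178531-17178844), which encodes Bazooka, the scaffold of the apical polarity complex. It had a signal of 827, with 423 in replicate 1 and 396 in replicate 2, 4541 bp from the nearest TSS, and a weaker baz member had 80.8. The ethanolamine kinase gene eas had 373 (211 in replicate 1, 169 in replicate 2), with its summit 945 bp into the gene, and the F-box gene Fbl6 had 348 (177 and 179). Fbl6 was the member nearest to the distance limit, at 502 bp. The muscle transcription factor gene Mef2 had 235 (137 and 97.7), the repressor gene cic 205 (118 and 83.5) and the kinase gene Raf 177 (99.4 and 76.9). These 6 were the strongest members in 5′ UTRs and all overlapped both replicate lists.

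Among 3′ UTRs, APC7 (FBgn0029879, X:6599344-6599634), a subunit gene of the anaphase-promoting complex, had a signal of 546, with 316 in replicate 1 and 226 in replicate 2. Its summit lay 577 bp from the start of the neighbouring gene pigs. UQCR-11, a gene of the mitochondrial cytochrome bc complex, had 397 (203 and 190), 911 bp into a gene whose own start carried a peak of 3578. CG7872 had 274, CG45002 had 268, the tensin gene by 235 and scf 191. The 3′ UTR of Antp, a Hox gene, held a weaker member of 83.6 that overlapped the list of replicate 1 alone.

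Coding exons held few strong peaks. The highest was at otp (FBgn0015524, 2R:20884464-20884741), a homeodomain gene, in exon 8 of 8, with a signal of 512, 280 in replicate 1 and 221 in replicate 2. It was also GC-rich, at 60.4%, and 4650 bp from any start. AGO3 (FBgn0250816, 3L:23568611-23568806), an Argonaute gene of the piRNA pathway, had 323 (161 and 156) at 33.7% G and C, in exon 3 of 8 and 12801 bp from a start. The fatty acid synthase gene FASN3 (FBgn0287184) held 278 (148 and 131) and 216 (119 and 104) 1116 bp apart, in exons 5 and 4, and a further entry of 2.79 that overlapped the one with 216. CG10357 had 270 (142 and 128). CG17684 (FBgn0263780, 2R:1995510-1995925) had 218 (114 and 98.9), and at 122776 bp its summit was the farthest of all members from a start. All 6 of these overlapped both replicate lists, and 5 of them were under 50% G and C.

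The weakest members were Ncoa6 (2.02), mAChR-A (2.41), the further FASN3 entry (2.79), Ppa (4.51), aop (4.88) and Cdk5 (5.65). Each overlapped a stronger entry of the list. Just inside the distance limit were Fbl6 (348, 502 bp), CG8736 (77.4, 503 bp), CG15247 (176, 506 bp) and CG17571 (71.2, 506 bp). Just outside it were amn (171, 473 bp), lncRNA:CR44868 (128, 489 bp), AlkB (69.4, 494 bp) and lncRNA:CR44517 (259, 497 bp), so signals on both sides of the limit covered a similar range.

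Exonic peaks were set beside the peaks at the start of the same gene. The gene had a combined peak at its own TSS for 59 of 208 exonic peaks (28.4%), against 555 of 1480 intronic peaks (37.5%) and 36.4% of both kinds together. The odds ratio was 0.660 (0.480 to 0.908, adjusted p = 0.0110 by the same exact test). The call depended on the setting. It was kept, for example, in the conservative list (0.533), without replicate 2 (0.456), for summits exonic in every transcript (0.625) and at more than 1000 bp from a TSS (0.667). It was lost in 6 alternatives: the odds ratio was 0.755 with a window of 200 bp at the start, 0.974 with 1000 bp, 1.02 without replicate 1, 0.675 for coding exons alone, 0.643 for UTR and non-coding exons alone and 0.932 at 50% G and C or more. Coding exon peaks and UTR and non-coding exon peaks had such a peak in 32 of 111 (28.8%) and 27 of 97 (27.8%) cases, an odds ratio of 1.05 (95% interval 0.574 to 1.92, Fisher's exact test, adjusted p = 1). Where the start had a peak, it was the stronger one in 44 of 59 cases.

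Exonic summits often lay towards the 3′ end of their genes. With a gene cut into 3 equal parts, the last part held 100 of 208 summits (48.1%). The limit of 500 bp leaves out summits near a TSS, so part of this position follows from the definition of members. Whether it went beyond that was not tested. The median distance to the nearest TSS was 1436 bp over all members, 2102 bp in coding exons, 755 bp in 5′ UTRs, 1710 bp in 3′ UTRs and 949 bp in non-coding exons. The nearest start belonged to the same gene for 137 of 208. Exons were long, with a median of 1042 bp, and 58 summits lay within 100 bp of an exon edge. First exons held 59 members, and the last exons of transcripts with several exons held 76. Exons of more than 1 gene overlapped at 7 summits, where the member is named by the protein-coding gene. By arm, 58 members lay on 3L, 47 on 3R, 40 on 2R, 33 on X, 28 on 2L and 2 on chromosome 4. Both replicate lists held 14 of the 58 on 3L, 7 of the 47 on 3R, 10 of the 40 on 2R, 15 of the 33 on X, 5 of the 28 on 2L and 1 of the 2 on chromosome 4. The median share of G and C was 53.0% on 3L, 55.4% on 3R, 51.5% on 2R, 34.7% on X, 45.0% on 2L and 39.6% on chromosome 4.

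The gene lists tied to ssp and to embryonic patterning were set beside all protein-coding genes, of which 159 of 13945 (1.14%) had an exonic peak and 2984 (21.4%) a peak at a TSS. Of 24 annotated genes on a list for the Wingless pathway, nkd, a feedback inhibitor of the pathway, had 1 exonic peak (68.5, in neither replicate list), and 7 genes had a peak at a TSS. Of 20 genes for E2F and S phase, 0 had an exonic peak and 9 had one at a TSS. Of 24 Hox and segmentation genes, 4 held 5 exonic peaks: slp2 (89.9), Antp (83.6), Dfd (71.4 and 8.64) and ftz (68.2). All but the Antp member lay in coding exons with 60.4% G and C or more, and all but the Antp member overlapped neither replicate list. In that list 1 gene had a peak at a TSS. No test of these counts was made.

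Short motifs were counted within 50 bp of each summit, with either strand read, as a description with no test. CAGCTG, an E-box, was found in 18.9% of coding exon peaks, 2.06% of UTR and non-coding exon peaks and 3.07% of intronic and intergenic peaks, beside 9.02% of the failed coding exon candidates, 5.46% of the failed UTR and non-coding exon candidates and 4.24% of all windows of this length on the 6 arms. TATAAA was found in 0.901% of coding exon peaks, 18.6% of UTR and non-coding exon peaks and 21.5% of intronic and intergenic peaks, beside 1.67% of the failed coding exon candidates, 8.75% of the failed UTR and non-coding exon candidates and 11.7% of all windows. TATAAA was in 9.13% of all exonic peaks and 21.1% of TSS peaks. TCAGT, the initiator motif, was in 11.5% of exonic, 19.4% of intronic and intergenic and 15.6% of TSS peaks. GAGAG was in 10.6% of exonic and 7.36% of TSS peaks. CGATA, TATCGATA and GGTCACACT were less common in exonic peaks than in TSS peaks, and so they were in intronic and intergenic peaks. CGATA was in 11.5% of exonic peaks and 12.02% of intronic and intergenic peaks. It was in 25.7% of peaks within 500 bp of a TSS and 11.3% of all windows. TATCGATA, which contains it, was in 0.481% of exonic peaks, 0.846% of intronic and intergenic peaks, 4.84% of TSS peaks and 0.275% of windows. GGTCACACT was in 0 of 208 exonic peaks, 0.0890% of intronic and intergenic peaks, 1.46% of TSS peaks and 0.0975% of windows.

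The other motifs were searched in the same way. In exonic peaks and in all windows, in that order, the shares were 11.5% and 15.5% for TCAGT, 10.6% and 11.4% for GAGAG, and 5.29% and 6.29% for CTTTGA. They were 4.81% and 3.07% for CCGGAA, 3.85% and 6.39% for TGCATA, and 3.37% and 2.13% for TGCGCA. They were 1.44% and 0.534% for CAGGTAG, 0.962% and 1.17% for CACGTG, and 0.481% and 0.948% for TTCCCGC, a site of E2F proteins. The AP-1 motif TGACTCA was found in 0.481% of exonic peaks and 0.784% of windows. The cyclic AMP response motif TGACGTCA was found in 0 of 208 exonic peaks and 0.133% of windows. Coding exon windows are richer in G and C than the rest of the genome, which these shares do not take out.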

How the data were processed

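The authors deposited peak lists on dm6 for each replicate and for both together, plain and conservative, and ranked candidate lists. The deposited signal is the peak caller's value per peak. In the ranked lists the deposited score, minus log10 of the global IDR, gave the IDR. Neither the aligner nor the peak caller is named in these sources. Another 16 columns of the ranked lists match no single sample and were left unused, and the control library is not analysed here, so whether exonic peaks also have signal in it was not tested. Summits were assigned with Ensembl release 115, leaving out transposable elements as genes, to a TSS within 500 bp, and failing that to a 5′ UTR, then a coding exon, a 3′ UTR, a non-coding exon, an intron or intergenic sequence. Coordinates count from 1. Two-sided exact tests of Fisher, with Woolf intervals for odds ratios and Wilson intervals for shares, compared shares, with Benjamini-Hochberg adjustment over 4 comparisons at 0.05, in Python 3.11.15 with SciPy 1.17.1. For an alternative, each p-value took the place of the main one among the 4 main comparisons. It was not adjusted with the other p-values of that alternative. Replicate overlap means 1 shared base. The code was tested on simulated data. Members, lists and tests were chosen with earlier results of these data known. Named peaks are the 25 strongest, the 6 strongest of each class, the 6 weakest, those nearest the distance limit, the farthest, those of the gene lists and those with printed sequence. Alternatives were other lists, windows, overlaps, exon definitions, comparison classes and motif flanks. Added after the data were seen were transposable elements as genes, entries overlapping a stronger one left out, UTR and non-coding exons alone, and the division at 50% GC.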

Additional observations from a re-analysis of the deposited data

Results flagged for a closer look

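Among the candidates outside the combined list, 1 exonic candidate had an IDR at or under 0.01, the level that all 208 exonic peaks of the list met. It lay in a coding exon of nvd, at 3L:24400969-24401384, with a combined candidate signal of 114, an IDR of 0.000503 and 32.7% G and C within 50 bp of its summit, and 76311 bp from the nearest TSS. Over all classes 116 candidates met that level without overlapping an entry of the list. Why they are outside the list was not tested.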

How the results depend on the processing

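Odds ratios below are exonic peaks over the class they were set against. The share of exonic peaks above the median signal was lower than that of intronic and intergenic peaks in the combined list (0.394), and the call was lost without replicate 1 (0.932) and without replicate 2 (0.690), for UTR and non-coding exons alone (0.867) and under 50% GC (0.858). It held in the other 10 alternatives, though narrowly at 50% GC or more (adjusted Fisher p = 0.0464). The share in both replicate lists was called in the other 11 alternatives, and not for UTR and non-coding exons alone (0.850) or under 50% GC (0.877). The share in the conservative list changed direction for UTR and non-coding exons alone (1.09, not called) and lost its call under 50% GC (0.862). No paired analysis was possible because the replicates belong to 1 group, and overlap with both lists has no value with a replicate left out.

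The share of genes with a peak at their own TSS was called in the main comparison (0.660) and ranged from 0.456 to 1.02 over the lists of single replicates, changing direction without replicate 1. It was kept in 9 alternatives, among them the conservative list (0.533) and the one against intronic peaks, which is the main comparison itself. Under 50% GC it was kept narrowly (0.623, adjusted Fisher p = 0.0425). No other comparison was called there, and that call rests on the adjustment chosen. It was not called for coding exons alone (0.675), for UTR and non-coding exons alone (0.643), at 50% GC or more (0.932), or with own TSS windows of 200 bp (0.755) and 1000 bp (0.974). The cause of these changes was not tested.

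The number of exonic peaks was 78 without replicate 1, 104 without replicate 2, 138 at more than 1000 bp from a TSS and 111 in coding exons, and it ran from 171 to 225 in the other alternatives. The whole lists were also shorter, with 3408 entries without replicate 1, 3594 without replicate 2 and 4683 in the conservative list, against 4914. The passing share of exonic candidates was 0.746% in the conservative list, 0.497% without replicate 1, 0.441% without replicate 2, 0.761% at more than 1000 bp from a TSS and 0.536% in coding exons. Shares over all candidates are not given for these alternatives, so a change in exons cannot be told from one in all classes. Depth, which is unknown, and the few strong coding exon peaks limit these comparisons.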
